A study of Drosophila melanogaster with 6 samples.

Results

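The 2 genes of the *Drosophila* FACT complex, *dre4* and *Ssrp*, were followed in the transcriptome of *ecd1* mutant larvae. They were taken by gene symbol from a table of 17606 genes, and the rows of either gene were taken from a table of changed splice junctions. Larvae of the third instar that were homozygous for *ecd1*, a temperature-sensitive recessive point allele of the splicing factor gene *ecdysoneless* (*ecd*), were compared with larvae of the control line *w1118*. Both genotypes grew for 10 days at 18°C, the permissive temperature, and spent their last 2 days at the restrictive 29°C. Each of the 3 biological replicates per genotype was total RNA from 8 whole larvae, so a level is a mean over all tissues of a larva, and a change in the number of cells that express a gene cannot be told apart from a change of RNA per cell. No *w1118* or *ecd1* sample was kept at 18°C throughout, so the genotypes were compared at 29°C only.

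FACT (facilitates chromatin transcription) is a histone chaperone made of 2 subunits. In *Drosophila*, *dre4* encodes Spt16 and *Ssrp* encodes the partner subunit, which carries a DNA-binding HMG box. The complex loosens and rebuilds nucleosomes by handling H2A-H2B dimers and other histones, which lets RNA polymerase II pass along a gene and restores the chromatin behind it, and it also acts during DNA replication. In flies it binds the GAGA factor encoded by *Trl*, and *dre4* mutants are known for a low ecdysteroid titre and arrested development, as *ecd* mutants are.

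In *ecd1* larvae the RNAs of both FACT subunits were higher than in *w1118* larvae, *dre4* by 1.50-fold and *Ssrp* by 1.77-fold. The *dre4* RNA also changed in composition. The junction that skips its alternative exon gained 0.246 in its share of the local junctions, and both junctions that include this exon lost share. No junction of *Ssrp* was in the splicing table.

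Levels are normalized counts, that is read pairs per gene divided by 1 size factor per sample. Whole reads could be recovered from them, and they came to 74581798 to 118102006 per sample. The *w1118* and *ecd1* samples held 4150 to 14190 reads of *dre4* or *Ssrp* each, for which the counting error (1 SD) is 0.839% to 1.55% of the value. One control stood apart. The 6 salivary glue genes *Sgs1*, *Sgs3*, *Sgs4*, *Sgs5*, *Sgs7* and *Sgs8*, whose RNAs are made late in larval life, summed to 642240 normalized counts in *w1118* replicate 1 and to 140 to 479 in the other 5 samples. Over all genes *w1118* replicate 1 had a Spearman correlation of 0.973 and 0.974 with the other controls, which had 0.995 with each other. The FACT levels and the counts over gene lists are therefore given with and without this sample. The *ecd* RNA stood at 2085, 1563 and 1565 normalized counts in the *w1118* samples and at 2111, 2218 and 2397 in the *ecd1* samples. Its log2 fold change of 0.38 ± 0.14 (SE) did not pass the test with all samples (adjusted p = 0.0769, limma), and passed without *w1118* replicate 1 (0.52, adjusted p = 0.0106, limma). Since *ecd1* is a point allele, the amount of its RNA does not check the labels.

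*dre4* (FBgn0002183) lies on the minus strand of chromosome 3L, at 3L:1871574-1876312 of dm6, and has 2 annotated transcripts. It overlaps no other annotated gene, although the nearest starts or ends 9 bases away. The 3 *w1118* samples held 7504, 6073 and 6151 normalized counts of *dre4*. The 3 *ecd1* samples held 8974, 10782 and 9790. Every *ecd1* sample was above every *w1118* sample, with *w1118* replicate 1 the highest control and *ecd1* replicate 2 the highest mutant. The means were 6576 ± 805 in *w1118* and 9849 ± 906 in *ecd1* (SD, n = 3). The log2 fold change was 0.59 ± 0.12 (SE), with a 95% interval of 0.30 to 0.87.

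*Ssrp* (FBgn0010278), at 2R:23806361-23809004 on the minus strand, has 1 annotated transcript and overlaps no other gene. Its level was 6336, 4895 and 4994 normalized counts in the *w1118* samples. In the *ecd1* samples it was 8590, 10839 and 9227. The groups again did not overlap, and the same 2 samples as for *dre4* were the highest of their genotypes. The means were 5409 ± 805 in *w1118* and 9552 ± 1159 in *ecd1* (SD, n = 3), a log2 fold change of 0.82 ± 0.14 (SE) with a 95% interval of 0.49 to 1.16.

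**Figure D1:**
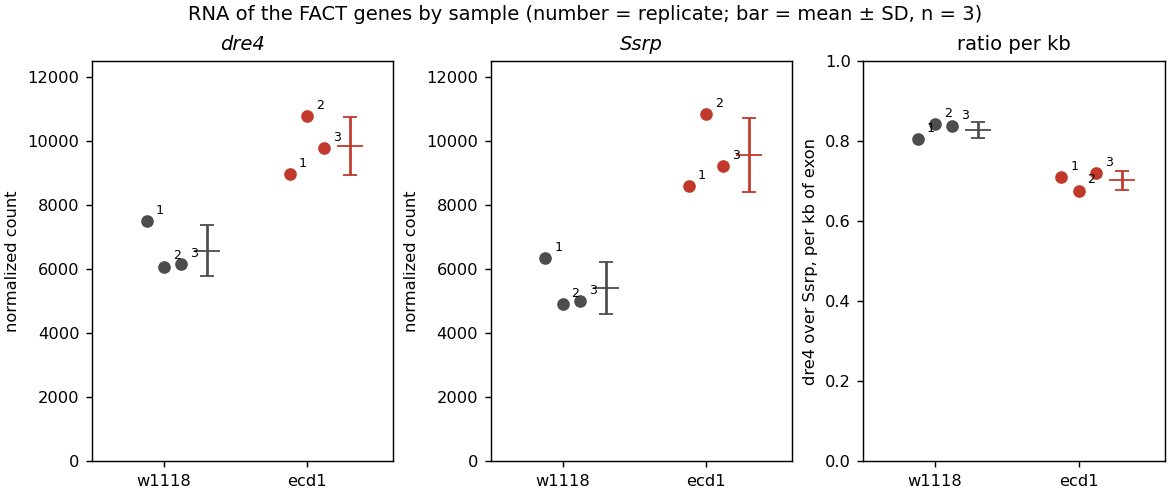
Normalized counts of *dre4* and *Ssrp* in each sample, and the ratio of *dre4* to *Ssrp* per kilobase of exon, for *w1118* (grey) and *ecd1* (red), with the replicate number beside each point and bars for mean ± SD (n = 3). Every *ecd1* sample lies above every *w1118* sample for both genes and below every *w1118* sample for the ratio.

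Both rises passed the test over all 12930 genes with a mean of at least 10 normalized counts (limma on log2 values, Benjamini-Hochberg adjusted p = 0.0118 for *dre4* and 0.00694 for *Ssrp*). A rise is meant here at an adjusted p below 0.05, which 16% of the tested genes reached, while 19.1% fell at the same threshold. In 26.7% of the tested genes all *ecd1* samples were above all *w1118* samples, so separation of the groups alone was common in these libraries. *Ssrp* had a higher log2 fold change than 91.2% of the tested genes and *dre4* than 85.4%. Both point estimates were under 2-fold, the size at which the study counted a gene as regulated, although the interval for *Ssrp* reaches past it. Neither gene was scarce. The mean level of *dre4* was above that of 87.5% of the tested genes and that of *Ssrp* above 86.5%, as normalized counts that are not corrected for length.

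The rise of *Ssrp* passed the test under each of 15 alternatives, with log2 fold changes of 0.69 to 0.94 and adjusted p-values of 1.2e-05 to 0.0299. The rise of *dre4* passed under 14 of 15, with log2 fold changes of 0.45 to 0.68. The exception was the fit without *ecd1* replicate 2, in which *dre4* had a log2 fold change of 0.52 and an adjusted p of 0.0501 (limma). Without *w1118* replicate 1, the control that stood apart, both changes were as large or larger, at 0.68 for *dre4* (adjusted p = 0.00756, limma) and 0.94 for *Ssrp* (adjusted p = 0.00573, limma).

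**Figure D2:**
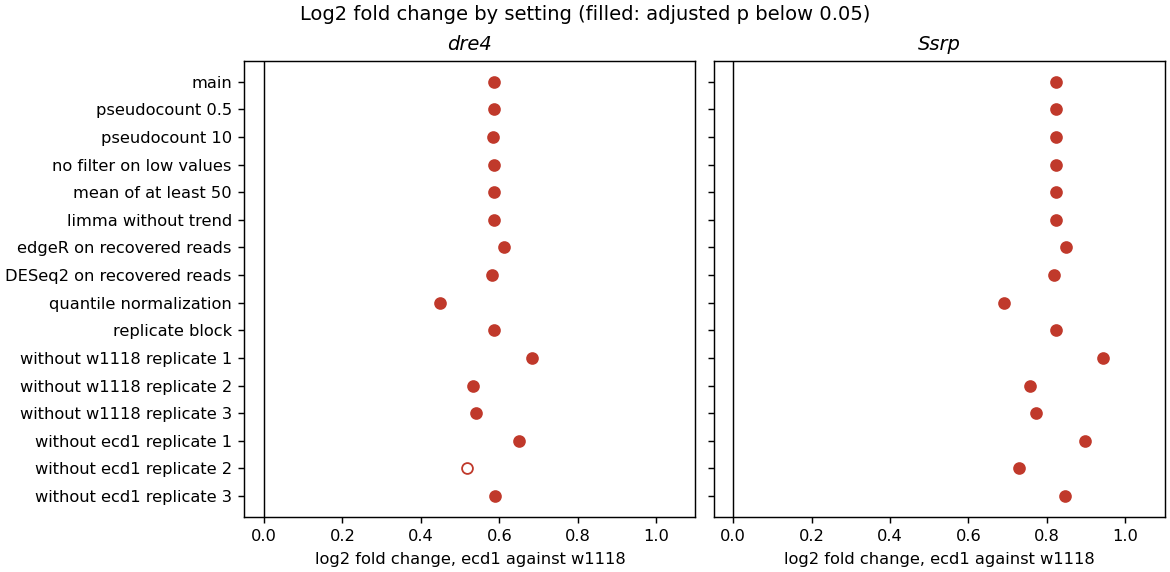
Log2 fold change of *dre4* and *Ssrp* in *ecd1* against *w1118* for the reported fit (main) and 15 alternatives, filled where the adjusted p was below 0.05. The values of *dre4* lie between 0.45 and 0.68 and those of *Ssrp* between 0.69 and 0.94, with 1 open point for *dre4* without *ecd1* replicate 2.

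The 2 subunits are found in equal numbers in the complex, so the balance of their RNAs was compared within each sample. Per kilobase of merged exon, 3690 bases for *dre4* and 2507 for *Ssrp*, the *dre4* level was 1782 ± 218 in *w1118* and 2669 ± 245 in *ecd1*, and the *Ssrp* level was 2157 ± 321 and 3810 ± 462 (SD, n = 3). *Ssrp* was thus the more abundant RNA per kilobase in every sample. The ratio of *dre4* to *Ssrp* per kilobase was 0.805, 0.843 and 0.837 in the *w1118* samples and 0.710, 0.676 and 0.721 in the *ecd1* samples, in replicate order. The ratio was lower in every *ecd1* sample than in any control, and its SD within a genotype, 0.0206 in *w1118* and 0.0235 in *ecd1*, was small beside the difference between the means of 0.828 and 0.702. On the log2 scale the ratio was 0.24 lower in *ecd1* (exact two-sided permutation test, p = 0.1, the smallest p that 3 samples against 3 can give).

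*dre4* was the FACT gene with rows in the splicing table. The table holds 1389 junctions of 653 genes, from clusters of introns that share a splice site, at an absolute deltaPSI above 0.1 and a cluster adjusted p below 0.05. The deltaPSI is the share of a junction in its cluster in *ecd1* minus that in *w1118*. It is 1 value over all 6 samples, so it has no SD here and was not retested without any sample. Among the 10826 tested genes with an annotated intron, 5.92% had a row.

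The 3 rows of *dre4* form 1 cluster around exon 8 of transcript dre4-RA (deposited cluster adjusted p = 2.701e-05). Exon 8 is 117 bases long, at 3L:1872354-1872470, and transcript dre4-RB lacks it. The junction from exon 7 to exon 9 removes 664 bases, at 3L:1871918-1872581, and had a deltaPSI of 0.246. This is the annotated intron of dre4-RB. The junction from exon 7 to exon 8, which removes 111 bases at 3L:1872471-1872581, had a deltaPSI of −0.110. The junction from exon 8 to exon 9, which removes 436 bases at 3L:1871918-1872353, had a deltaPSI of −0.137. The *ecd1* larvae thus had more of the skipping form. Shares within a cluster sum to 1, so the 2 inclusion junctions together had to lose what the skip junction gained. The 2 losses differed from each other by 0.0267.

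**Figure D3:**
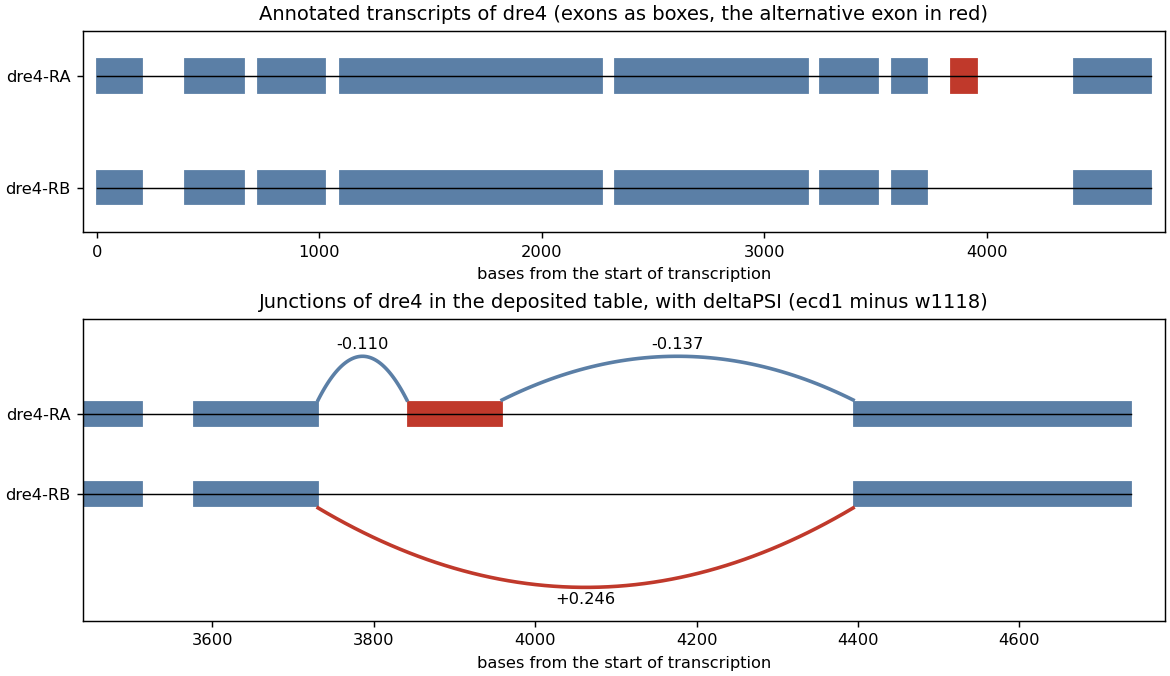
Annotated transcripts of *dre4* by distance in bases from the start of transcription, with exons as boxes and the alternative exon in red (top), and the end of the gene enlarged with the deltaPSI (*ecd1* minus *w1118*) of its 3 junctions in the table (bottom). The junction that skips the 117-base exon stands at 0.246 and the 2 that include it at −0.110 and −0.137.

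Both forms of *dre4* are annotated and both keep the reading frame. The coding sequence of dre4-RA has 1122 codons and that of dre4-RB 1083. Exon 8 holds coding bases 3096 to 3212 of dre4-RA and lies wholly within the coding sequence, toward the C-terminal end of Spt16. Its length is a multiple of 3, so the difference of 39 codons between the transcripts introduces no shift. The other 6 annotated introns of *dre4*, of 54 to 194 bases, had no row, and no 2 of them share a splice site. *Ssrp* has 2 introns, of 60 and 77 bases, which share no splice site with each other either. An intron with no partner at a splice site forms no cluster in LeafCutter, so the absence of *Ssrp* does not measure how well its introns were spliced.

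Of the rows of the table, 202 junctions in 187 genes skip exactly 1 exon of an annotated transcript. Of these, 149 gained share in *ecd1* while 53 lost it. They were found from the annotation, whether or not a junction that includes the exon was in the table. They are therefore not all changes of the kind seen in *dre4*. Only in 31 of the 202 were both inclusion junctions also in the table, as for *dre4*, and 26 of the 31 gained. By size *dre4* was the 18th of the 26, below their median deltaPSI of 0.288. Both inclusion junctions of these 26 had to pass the deltaPSI cut of the table. Shares sum to 1 within a cluster, so this choice favours large skip values. Above 0.2 stood 23 of the 26, beside 53 of all 149 skip junctions that gained. The rank within the 26 therefore does not place *dre4* among the 149. Over all rows, 18.9% had a larger absolute deltaPSI than the *dre4* skip junction. Exons that are coding over their whole length, flanked by both inclusion rows and skipped more in *ecd1*, numbered 11. By deltaPSI *dre4* was the 8th of these 11, a rank under the same choice. The others were in *cmet*, a kinetochore kinesin, *tau*, a microtubule-associated protein, *Snap25*, a SNARE of vesicle fusion, *Mbs*, a subunit of myosin phosphatase, and in *CG41378*, *RhoGAP19D*, *Trim9*, *subdued*, *CG10948* and *Ac76E*, with deltaPSI from 0.234 to 0.371. Among all fully coding skipped exons in the table, 105 of 124 had a length that is a multiple of 3, against 135 of all 242 skipped exons. The 242 include the 124, and different annotated exons under 1 junction are counted separately. Of the 202 skip junctions, 182 are themselves annotated introns.

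**Figure D4:**
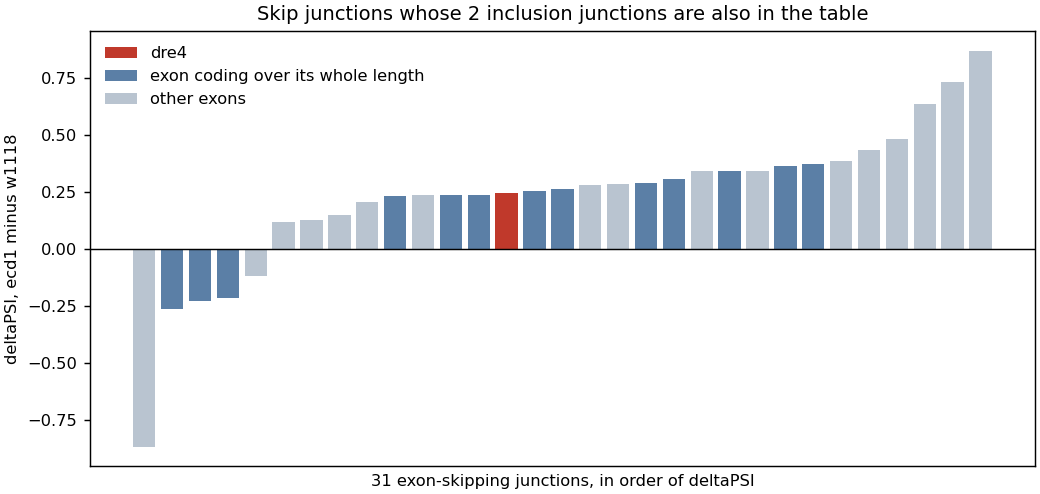
DeltaPSI (*ecd1* minus *w1118*) of the 31 junctions that skip 1 annotated exon and whose inclusion junctions are also in the table, in order of size, with *dre4* in red and other fully coding exons in dark blue. Bars above 0 number 26, and the *dre4* bar at 0.246 is the 18th of them from the top.

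The levels of the genes with changed junctions were set beside those of all genes, of which 16% rose and 19.1% fell. Of the 31 genes with a skip junction and both inclusion junctions in the table, *dre4* was 1 of 8 that rose (25.8%), 6 fell and the rest did not pass the test. Among the 642 tested genes with any row, 118 (18.4%) rose and 70 (10.9%) fell. The libraries of the 2 genotypes also differed in their fragments. The mean insert size was 160.6 to 163.1 bases in the *w1118* libraries (161.5 ± 1.37, SD, n = 3) and 138.2 to 139.2 bases in the *ecd1* libraries (138.7 ± 0.503, SD, n = 3), with no overlap, and the part of this difference in the junction shares was not tested.

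The FACT genes were set beside 24 other genes chosen for their part in transcription elongation on chromatin. One (IWS1) could not be matched to an identifier, *Atu* was listed at 0 in all samples, and 22 were tested. Of these, 3 rose (13.6%, beside 16% of all genes tested), 2 fell and 17 did not pass, with a median log2 fold change of 0.15 beside 0.0075 over all genes. With quantile normalization 1 rose and 2 fell, and the median was 0.014 beside 0.033 over all genes. *Set2*, the histone H3 lysine 36 methyltransferase that travels with elongating polymerase, rose by 0.57 ± 0.12 (log2, SE), from 2932 ± 346 normalized counts to 4352 ± 357 (adjusted p = 0.0123, limma). *Nelf-A*, a subunit of the pausing factor NELF, rose by 0.39 ± 0.12 (adjusted p = 0.0441, limma). The other riser was *Ctr9*, of the Paf1 complex, at 0.30 ± 0.08. *Nelf-E*, also a NELF subunit, fell by 1.17 on the log2 scale, from 884, 970 and 898 normalized counts to 417, 396 and 409 (adjusted p = 0.00251, limma). *TfIIS*, which restarts stalled polymerase, fell by 0.32. Subunits of NELF thus differed in direction. *Spt6*, another histone chaperone of elongation, had 0.30 (adjusted p = 0.198, limma), and *Trl* had −0.14 (adjusted p = 0.490, limma), neither past the test.

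These counts depend on single samples. Without *w1118* replicate 1, 7 elongation genes rose and 2 fell. Without *w1118* replicate 2, without *w1118* replicate 3 or without *ecd1* replicate 3, 1 rose and 1 fell, and without *ecd1* replicate 2 none rose and 1 fell. With the replicate number as a block, 1 rose and 1 fell, and *Nelf-A* (adjusted p = 0.0788, limma) and *TfIIS* (adjusted p = 0.0531, limma) no longer passed. *Nelf-E* fell under each alternative run.

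Of 20 other histone chaperones tested, 2 rose (10%, beside 16% of all genes), 2 fell (beside 19.1%) and 16 did not pass, and the median log2 fold change was 0.0086. *Hira*, which deposits the variant histone H3.3, rose by 0.52 ± 0.12 (log2, SE), from 1662 ± 217 to 2371 ± 41.9 normalized counts (adjusted p = 0.0155, limma). *YL-1*, a subunit of the Domino complex that exchanges H2A.V, rose by 0.31 ± 0.10 (adjusted p = 0.0469, limma), a call that was lost with the replicate block (adjusted p = 0.0716, limma). *cal1*, which loads the centromeric histone CID, fell by 0.56. *mil*, a nucleosome assembly protein family gene expressed in the male germ line, fell by 2.27. Without *w1118* replicate 1, 6 chaperone genes rose and 2 fell. Without *w1118* replicate 2 none rose and 2 fell, and without *w1118* replicate 3 or *ecd1* replicate 2 none rose and 1 fell.

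Over the elongation and chaperone lists together, none of 42 tested genes had a log2 fold change above that of *dre4* or of *Ssrp*. The 95% interval of 10 of them reached the value of *dre4*, however, and that of 2 reached the value of *Ssrp*, and these differences were not tested.

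**Figure D5:**
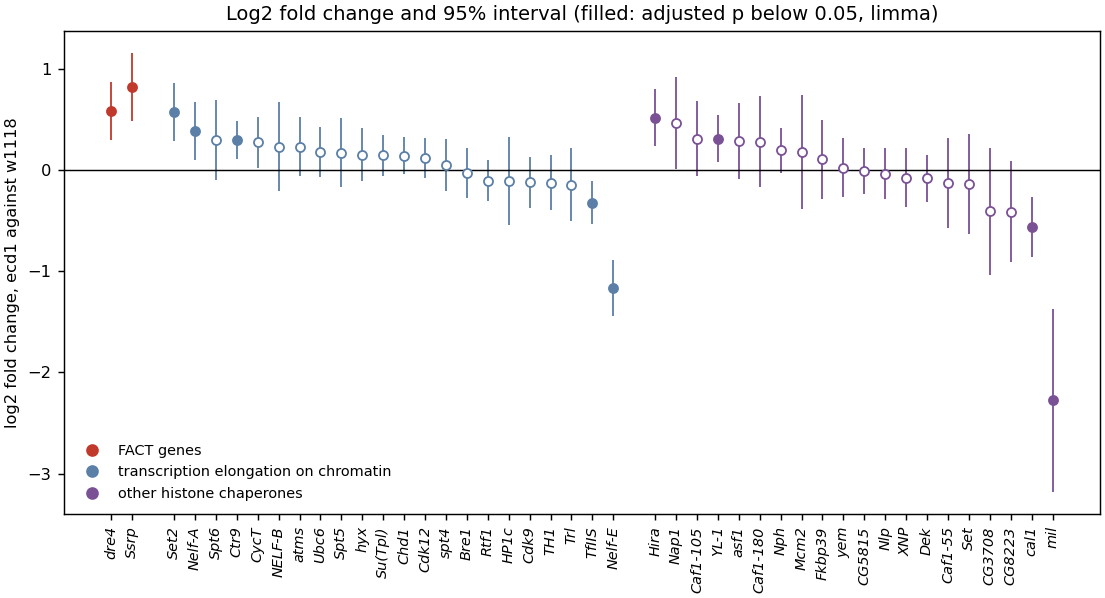
Log2 fold change in *ecd1* against *w1118* with its 95% interval for the FACT genes (red), 22 genes of transcription elongation on chromatin (blue) and 20 other histone chaperones (purple), filled where the adjusted p was below 0.05. The FACT genes stand at 0.59 and 0.82, and the lists run from 0.57 down to −2.27.

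None of 6 histone variant genes passed the test (limma), with a median of −0.21. The nearest to passing was *BigH1*, the embryonic and germ line linker histone, at −1.20 (adjusted p = 0.0503, limma). With the replicate block, with DESeq2 and with quantile normalization, 2 of the 6 fell, and 1 fell without *w1118* replicate 1. Of 22 chromatin remodelling ATPases and their partners, 2 rose and 1 fell, with a median of 0.023, beside the 16% and 19.1% of all genes. *Acf*, the partner of the Iswi ATPase in nucleosome spacing complexes, fell by 1.91, from 2816 ± 395 to 751 ± 109 normalized counts (adjusted p = 0.00156, limma). *Nurf-38*, an inorganic pyrophosphatase that is also a NURF subunit, had 0.63 (adjusted p = 0.0405, limma), and *kis*, a CHD-family remodeller, had 0.41 (adjusted p = 0.0312, limma). Both lost the call with the replicate block (adjusted p = 0.0553 and 0.0627, limma), which left *Acf* as the only remodelling gene called. The change of *Nurf-38* was 0.42 without *w1118* replicate 1. With quantile normalization no remodelling gene rose and 3 fell, with a median of −0.049. Without *w1118* replicate 1, 6 remodelling genes rose and 2 fell, while *Acf* alone was called without *w1118* replicate 3 and without the second or the third *ecd1* replicate. Rows in the splicing table were held by 4 of 18 remodelling genes with an intron, and by 0 of 21 elongation, 0 of 18 chaperone and 0 of 5 variant genes, beside 5.92% of all genes, and the difference between lists was not tested. They were *E(bx)* of the NURF complex at 0.180, *mor* and *osa* of the Brahma complex at 0.174 and 0.163, and *kis* at 0.133. The equal loss in another junction of *mor* and of *osa* follows from shares that sum to 1 within a cluster. Of the marker lists below, *bol*, a regulator of meiotic entry in males, had 7 rows with deltaPSI from −0.455 to 0.365, and *CycE*, the S phase cyclin, had 0.232 and −0.232.

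FACT is abundant in dividing cells, so markers of cell populations were set beside its genes. The 20 markers of proliferating cells summed to 55331, 30725 and 31982 normalized counts in the *w1118* samples and to 34671, 29869 and 28766 in the *ecd1* samples, in replicate order. *w1118* replicate 1 was the highest sample of this sum and the highest control for *dre4* and *Ssrp*. The sums of the genotypes overlapped with and without it. Of the 20 proliferation markers, 6 fell and 1 rose, beside 19.1% and 16% of all genes tested. Their median log2 fold change was −0.46. Without *w1118* replicate 1, 7 fell and 3 rose, and the median was −0.14. The mitotic genes *aurA* (−1.22), *polo* (−1.05), *CycA* (−1.02) and *fzy* (−0.88) fell, and *RnrL*, which makes deoxynucleotides for DNA synthesis, rose by 0.72. Of the markers of DNA replication, *PCNA* (0.09), *RnrS* (0.32), *DNApol-alpha180* (0.005) and *dup* (−0.19) did not pass the test with all samples. Nor did *CycE* (−0.32) or *Mcm3*, *Mcm5*, *Mcm6* and *Mcm7*, at −0.17, −0.11, −0.15 and −0.10. The change of *fzy* was −0.58 without *w1118* replicate 1, and its call was lost under 7 of 15 alternatives. Without *ecd1* replicate 2, 2 of the proliferation markers fell and none rose, and 4 were called when *w1118* replicate 3, *ecd1* replicate 1 or *ecd1* replicate 3 was left out.

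Markers of spermatocytes and spermatids were lower in *ecd1*. They summed to 16508 to 24499 normalized counts in *w1118* and to 6372 to 10123 in *ecd1*. Of 20 tested, 14 fell and none rose (limma), beside 19.1% and 16% of all genes tested, with a median of −1.59. Without *w1118* replicate 1, 17 fell and the median was −1.8. Examples were *dj* (−3.02), *betaTub85D* (−2.56), *Mst98Cb* (−2.33) and *Mst84Db* (−2.25), which serve the sperm tail, the meiotic spindle and sperm chromatin. In the list of early germ line markers 2 of 12 fell, beside 19.1% of all genes tested, with a median of −0.30. They were *bgcn* (−1.57) and *krimp* (−1.29), and 3 fell without *w1118* replicate 1. Above 0, but not past the test, were *spn-E* (0.50), *vas* (0.21), *aub* (0.19), *tej* (0.14) and *tud* (0.09). Below 0, and not past the test either, were *nos* (−0.56), *AGO3* (−0.41), *bam* (−0.40), *piwi* (−0.36) and *zpg* (−0.24). With quantile normalization 1 rose and 1 fell, *krimp* no longer passed, and the median turned to 0.39. The sums of that list, 38389 to 50367 in *w1118* and 46074 to 48719 in *ecd1*, were mostly *tud*, at 36459 to 46907, and without it they were 1929 to 3460 in *w1118* and 1976 to 2955 in *ecd1*. Neither early germ line call held once the third *w1118* replicate, or either the first or the second *ecd1* replicate, was left out. The part of these populations in the levels or the splicing of *dre4* and *Ssrp* was not tested.

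Genes with the profile most like that of each FACT gene were found over the 6 samples among 10353 others with a mean of at least 100 normalized counts, by the root mean square difference of log2 values after centring each gene on its own mean. For *dre4* they were *ea*, a serine protease of embryonic dorsoventral patterning (0.028), *GCS1*, an enzyme that trims N-glycans (0.0447), *Set2* (0.0461) and *NimC1*, a phagocytosis receptor of blood cells (0.0465). For *Ssrp* they were *DNApol-epsilon255*, the catalytic subunit of DNA polymerase epsilon (0.0322), *mldr* (0.0534), *CG31694* (0.0574) and *CG3626* (0.0576). The FACT genes were not each other's nearest match. Their difference was 0.124, which made *Ssrp* the 263rd nearest gene to *dre4* and *dre4* the 47th nearest to *Ssrp*. The levels of *ea* were 1960, 1679 and 1623 in *w1118* and 2439, 2859 and 2594 in *ecd1*, and those of *DNApol-epsilon255* were 1339, 979 and 1022 in *w1118* and 1803, 2156 and 1886 in *ecd1*. Each shares with the FACT genes a high *w1118* replicate 1 and a high *ecd1* replicate 2. The choice by likeness over these same 6 samples brings this about, so it is no separate result.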

How the data were processed

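The authors sequenced read pairs of 100 bases, aligned them to dm6 with TopHat2 2.0.10, summarised them by gene in featureCounts 1.6.4 and deposited the signal left after division by DESeq2 size factors (the version and the strand setting are not given in the sources used here). About 0.50 of the reads, a fraction from the deposited quality report, lay on 1 strand. Of the values above 0, 100% gave whole reads within 0.05. The authors deposited deltaPSI, a score from LeafCutter, with 1 p-value per cluster, adjusted. Their tables of regulated genes, fold changes and GO terms were not used.

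limma 3.58.1 (R 4.3.3) was fitted with a trend to log2(normalized count + 1) of genes with a mean of at least 10, with genotype as the term, and it understates changes of low genes. edgeR 4.0.16 and DESeq2 1.42.0 were run on recovered reads as alternatives, and called 4641 and 5483 genes beside 4538. Other alternatives were the pseudocount (0.5, 10), filters (none, 50), no trend, quantile normalization, the replicate block, each sample left out and, for junctions, a higher deltaPSI. The fits were tested on simulated data. Deviations from the genotype means correlated at 0.209, 0.232 and 0.225 between samples with the same replicate number. For different numbers the correlations were −0.274 to 0.0541. Deviations cancel within a genotype, so part of this contrast is built in, and a pairing of the samples was not tested. No source says what the numbers stand for. Coordinates and transcripts come from Ensembl release 115, which held 17527 of the 17606 identifiers.

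The members, the 7 gene lists (126 of 131 entries matched) and the tests were chosen with earlier results of these data known. The rule named *ecd*, up to 4 called genes per list with the largest change and a mean of at least 100, the 4 genes nearest in profile to each member, and the list genes with the largest deltaPSI. An unverified alias of IWS1 was dropped after its values were seen. Also outside the rule, *Ctr9*, *RnrL*, *Spt6*, *Trl*, *NELF-B*, *TH1*, *BigH1* and *Atu* were named after their values were seen. So were the glue genes, the 10 other coding cassette genes and further list genes with junctions. The same holds for the proliferation and early germ line markers named as not passing the test.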

Additional observations from a re-analysis of the deposited data

How the results depend on the processing

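*Ssrp* kept its rise under each of 15 alternatives (log2 fold change 0.69 to 0.94), and *dre4* under all but the fit without *ecd1* replicate 2 (0.52), its values with a sample left out being 0.52 to 0.68. The *ecd* level, 0.31 to 0.52 with a sample left out, passed the test only without *w1118* replicate 1 (0.52). The log2 ratio of *dre4* to *Ssrp* was lower in *ecd1* under each of 9 alternatives, at −0.259 to −0.211 with a sample left out. With the samples paired by replicate number it was −0.238 (exact sign-flip test, p = 0.25, the smallest p that 3 pairs can give). With a sample left out, 2367 (without *ecd1* replicate 2) to 5157 genes were called beside 4538, and 2897 without *w1118* replicate 3. The genes called in each list then ranged over 1 to 9 for elongation, 1 to 8 for chaperones, 0 to 1 for histone variants, 1 to 8 for remodelling, 2 to 10 for proliferation, 10 to 17 for spermatocytes and 0 to 3 for the early germ line. With limma without a trend, 2 elongation, 1 remodelling and 4 proliferation genes were called. With quantile normalization, 3 elongation and 2 histone variant genes were called, the 3 remodelling calls were all falls, and with DESeq2, 7 remodelling and 2 histone variant genes. With the replicate block as a term for a possible pairing, 2 elongation, 1 remodelling and 2 histone variant genes were called. The block changed no call for *dre4* (0.59), *Ssrp* (0.82) or *ecd* (0.38), and it left the other lists within 1.5 times of their counts. At an absolute deltaPSI above 0.2, 64 of the 202 exon-skipping junctions remained in the count, *dre4* among them. The cause of these differences was not tested.

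With 3 samples per genotype an exact test of a single value cannot go below 0.1. The deposited junction table gives 1 value per junction with no value per sample, leaves out what did not pass, and comes from libraries that differed in insert size between the genotypes. Counting error was small beside the spread between samples for both FACT genes, so depth did not limit their levels. Whole larvae mix all tissues.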
